A study of Mus musculus with 18 samples.

Results

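Nrf2, the transcription factor encoded by Nfe2l2, and 31 genes of antioxidant defence were followed in mouse macrophages over 24 h of dexamethasone, a synthetic glucocorticoid. The 32 genes were chosen by name, with earlier results of these data known. The brightest probe set that the annotation gives to a single gene symbol stood for each. Of the 32, 26 had such a probe set, among 17020 genes named on the array, and all 26 were among the 13190 genes bright enough to test. Keap1, Prdx5, Prdx6, G6pdx and Gsta3 had no probe set of a single symbol in the annotation used here, and Sqstm1 only a probe set that lists several symbols, so these 6 genes were not analysed here.

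The treated groups were bone marrow derived macrophages given 100 nM dexamethasone for 1, 2, 4, 10 or 24 h, and the last group was taken at baseline with no dexamethasone. All 6 groups, of 3 arrays each, shared their source: per the labels, marrow of 3 male C57BL/6 mice aged 10 weeks, grown for 1 week in 10% serum with recombinant human CSF1 at 10000 U/ml and then replated in the same factors. The series design text calls the arrays biological replicates, but the labels do not tie a replicate to a mouse, so p-values measure the spread between these arrays. No cells kept without dexamethasone to the later times were analysed here, so time in culture and dexamethasone cannot be told apart.

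Nrf2 is held at a low level by Keap1, an adaptor that passes it to a Cul3 ubiquitin ligase. Oxidants and electrophiles modify cysteines of Keap1, and Nrf2 then pairs with a small Maf protein on antioxidant response elements, short DNA sites near its target genes. The targets make and recycle glutathione and thioredoxin, supply NADPH to both systems and conjugate reactive compounds, and in macrophages, which produce superoxide themselves, Nrf2 is also known to restrain inflammatory cytokine genes.

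Promoter sequence was set beside the members because many of them are known Nrf2 targets and several moved together below. RefSeq (GRCm38.p6) gave promoter windows for 29 of the 32 genes, 24 of them tested, and the 250 bases before each annotated start were searched on both strands for TGACNNNGC and TGATNNNGC, cores of the antioxidant response element, which do not overlap each other as motifs. TGACNNNGC was found for 6 of the 24 tested members (25.0%) and for 13.8% of all tested genes with a window, and TGATNNNGC for 2 of the 24, Slc7a11 and Tkt, and for 7.25% of tested genes. Of the 9 members lower at 24 h 4 held TGACNNNGC (Txnrd1, Prdx1, Gclm and Sod1), as did Mgst1 among the 3 higher members that had a window. ACANNNTGT, the core of a glucocorticoid response element, was found in 0 of the 38 windows of the members and in 4.01% of the windows of tested genes. A match is a description of the letters, and no match says only that they are not in this window. The 4 promoters printed here are those of Mgst1 and Txnrd1, the members with the largest rise and the largest fall at 24 h among those with a core, and of Prdx1 and Gclm, which also fell. They lie at chr6:138140277-138140526, chr10:82858956-82859205, chr4:116685349-116685598 and chr3:122245307-122245556, all on the plus strand, and each ends at the base before the start. The Txnrd1 window belongs to the second of 3 annotated starts of that gene. The Gclm window belongs to a start at 122245557, whereas the gene as RefSeq gives it begins at 122245487, inside the window. Mgst1 has another window, before a start at 138141587, that holds no core. Distances given after the sequences are counted from the start that follows each window. Capitals mark the core, which lies on the opposite strand in all 4.
Mgst1: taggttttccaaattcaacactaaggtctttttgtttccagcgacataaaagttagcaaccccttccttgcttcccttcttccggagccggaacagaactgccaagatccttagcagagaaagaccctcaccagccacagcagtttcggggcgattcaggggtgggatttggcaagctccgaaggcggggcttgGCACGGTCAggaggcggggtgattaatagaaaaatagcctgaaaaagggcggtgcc
Txnrd1: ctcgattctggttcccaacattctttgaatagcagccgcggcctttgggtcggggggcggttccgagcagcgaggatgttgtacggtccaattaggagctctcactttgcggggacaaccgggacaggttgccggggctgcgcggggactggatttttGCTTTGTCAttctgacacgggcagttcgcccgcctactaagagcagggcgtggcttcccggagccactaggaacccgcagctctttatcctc
Prdx1: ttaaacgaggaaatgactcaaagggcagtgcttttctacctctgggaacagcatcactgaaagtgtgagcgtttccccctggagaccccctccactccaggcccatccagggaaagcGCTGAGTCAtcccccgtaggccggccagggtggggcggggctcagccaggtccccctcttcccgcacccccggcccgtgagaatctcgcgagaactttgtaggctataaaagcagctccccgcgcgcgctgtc
Gclm: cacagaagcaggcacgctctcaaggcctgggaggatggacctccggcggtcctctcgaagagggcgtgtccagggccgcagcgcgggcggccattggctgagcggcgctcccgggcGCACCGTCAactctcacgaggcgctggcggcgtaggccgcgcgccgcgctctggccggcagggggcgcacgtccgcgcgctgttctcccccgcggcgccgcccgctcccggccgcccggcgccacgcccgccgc
The core spans bases 56 to 48 before the start in Mgst1, bases 92 to 84 in Txnrd1, bases 133 to 125 in Prdx1 and bases 134 to 126 in Gclm.

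Pearson correlations between arrays of a group lay at 0.995 to 0.997. All 7 macrophage markers were above the background level on all 18 arrays (on average 3.91 log2, from nonspecific control probe sets). Of 4 named erythroid markers, a lineage rich in Cat and Prdx2, 0 were above it on all arrays and 2 were below it on all. Some markers of other cells were above it on all 18 arrays. These were 4 of 7 named for neutrophils (Ltf, Ngp, S100a8 and S100a9) and 2 of 4 for T cells (Cd3e and Cd4). They also included 1 of 4 for B cells (Cd79b) and 1 of 5 for mast cells (Kit). For dendritic and stromal cells 0 of 4 and 0 of 5 were. Summed neutrophil markers lay at 571 to 699 at 24 h and 699 to 1158 at baseline, and summed mast cell markers at 59.1 to 78.9 at 24 h and 114 to 116 at baseline, in linear intensity. Macrophage markers summed to 22097 to 22300 at 24 h and 20677 to 21419 at baseline. Gapdh control probe sets, which read RNA quality as the excess of 3′ over 5′ signal, differed by 0.20 ± 0.03 log2 at 24 h and 0.06 ± 0.03 at baseline (SD, n = 3 each). The two-sided exact permutation test gave p = 0.1 (0.125 adjusted over 10 comparisons), which is its minimum for groups of 3. The part of other cells, of RNA quality and of the number of cells in the results below was not tested; on these arrays less RNA per cell and fewer cells that express a gene cannot be told apart.

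The comparison of each time with baseline asked which members changed and when. Values are RMA intensities on the log2 scale, changes are log2 differences with limma standard errors (n = 3 arrays per group), and a gene is called at a Benjamini-Hochberg adjusted p under 0.05 over all 13190 genes. All 5 comparisons share the baseline arrays. No member was called at 1 h, where 0.387% of all genes were, and 1 member had an unadjusted p under 0.05. At 2 h 1 member fell, where 2.15% of genes were called and 0.576% fell. At 4 h 2 members fell, where 7.52% of genes were called and 3.03% fell. At 10 h 4 members rose and 6 fell, 38.5% of the 26, where 14.4% of genes were called, with 8.29% higher and 6.16% lower. At 24 h 4 members rose and 9 fell, 50% of the 26, where 12.7% of genes were called, with 7.38% higher and 5.34% lower. The 24 h arrays of 4 members lay wholly above the baseline arrays and those of 11 wholly below, as for 15.3% and 12.6% of all genes. The median change of the members at 24 h was -0.10 log2, beside 0.01 over all tested genes. In the F test over all 5 times 13 members were called, 50% against 17.4% of genes. The members were brighter than most genes, with a median level of 10.74 log2 beside 6.49 for all tested genes, and their median standard error at 24 h was 0.06 beside 0.12. Among genes with a mean level of 10 log2 or more, 7 of 15 members and 24.9% of 1343 genes were called at 24 h, and 5 of 15 members and 26.7% of genes at 10 h.

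The split between rises and falls depended on the scaling. Centring each array on its median over the tested genes moved the median change of all genes at 24 h from 0.01 to -0.11 log2, and 1 member then rose and 14 fell at 24 h, in place of 4 and 9, and 0 rose and 9 fell at 10 h, in place of 4 and 6. Of all 13190 genes, that centring called 2408 at 24 h, in place of 1678, and 2626 at 10 h, in place of 1905. Centring on the median difference per gene, an alternative chosen after the data were seen, gave 3 and 10 at 24 h and 3 and 6 at 10 h. With it 1679 of all genes were called at 24 h and 1928 at 10 h. Leaving out 10 h replicate 2 brought the 10 calls at 10 h to 6, as did a fit of the baseline and 10 h arrays alone, and leaving out 4 h replicate 3 brought the 2 calls at 4 h to 1.

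**Figure D1:**
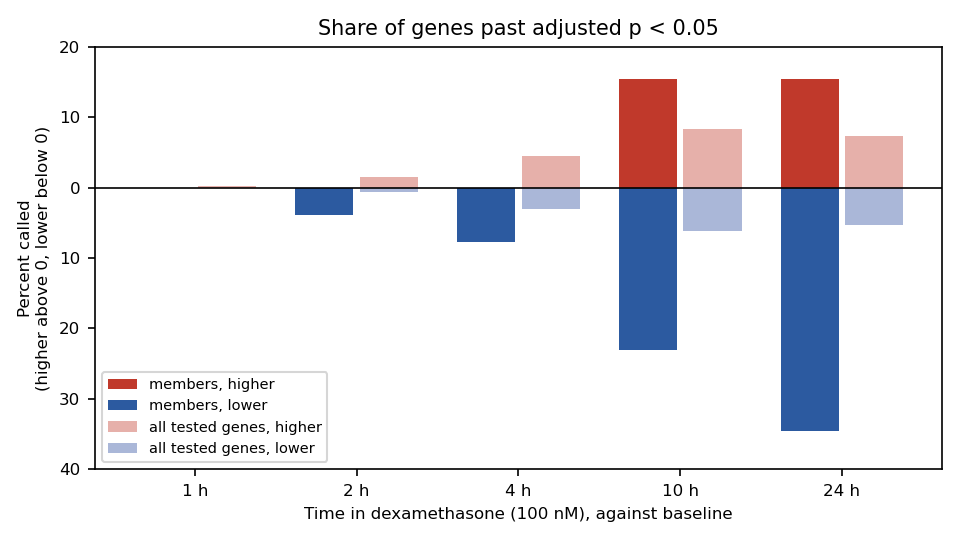
Percent of the 26 members (dark bars) and of all 13190 tested genes (pale bars) called at each time against baseline, with higher genes drawn above 0 and lower genes below. All bars show the deposited scaling. At 24 h 9 members were lower and 4 higher. With each array centred on its median 14 were lower and 1 higher, and 2408 of all genes were called in place of 1678.

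**Figure D2:**
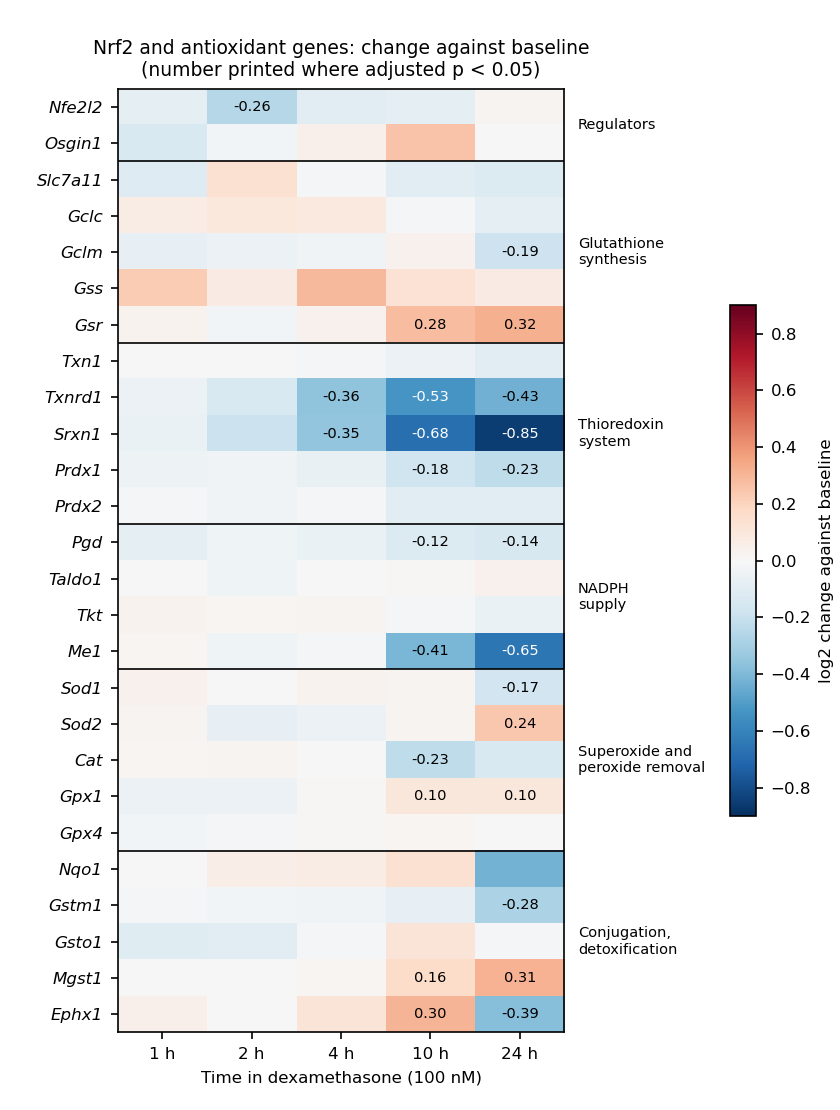
log2 change against baseline of the 26 measured members (rows, grouped by role) at each time in dexamethasone (columns); the number is printed where the adjusted p was under 0.05. Srxn1 and Txnrd1 are lower from 4 h on, and Ephx1 is higher at 10 h and lower at 24 h. The small rises of Gpx1 turn to -0.02 with each array centred on its median.

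Among the regulators, Nfe2l2 itself was called lower at 2 h only. Its level was 10.53, 10.50 and 10.58 log2 on the 2 h arrays, against 10.78, 10.76 and 10.84 at baseline. All 3 arrays at 2 h lay below all 3 at baseline, a change of -0.26 ± 0.05 (adjusted p 0.00414). At 4 h and 10 h its changes were -0.10 ± 0.05 and -0.09 ± 0.05, and neither was called (adjusted p 0.337 and 0.321). The difference from 2 h to 4 h, 0.16 ± 0.05, was not called either (adjusted p 0.157). By 24 h Nfe2l2 was at 10.72, 10.88 and 10.85, around the baseline arrays, with a change of 0.02 ± 0.05 (adjusted p 0.854). A dimmer probe set of Nfe2l2, at a mean of 6.86 log2, was also lower at 2 h (-0.19 log2) but differed later, with -0.49 at 4 h and -0.24 at 24 h. The 2 h call was lost where that probe set stood for the gene (adjusted p 0.754), and also with the mean of the probe sets and without an intensity trend. Osgin1, a gene induced by oxidative stress, had a change of 0.26 ± 0.14 at 10 h (adjusted p 0.254) and 0.00 ± 0.14 at 24 h (adjusted p 0.99).

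The thioredoxin system reduces disulfides and peroxides with electrons from NADPH, and 3 of its 5 measured members fell and 0 rose, both at 10 h, where 6.16% of all genes fell, and at 24 h, where 5.34% did. Srxn1, sulfiredoxin, which repairs overoxidised peroxiredoxins, had the largest change among the members at 10 h and at 24 h. Its level was 7.84, 8.02 and 8.02 log2 at 24 h, against 8.89, 8.81 and 8.74 at baseline. Over the series its mean was 8.81 at baseline and 8.75, 8.62, 8.46, 8.14 and 7.96 at 1, 2, 4, 10 and 24 h, lower at each successive time. From 2 h on the treated arrays did not overlap the baseline arrays, as was so for 4.86% of genes at 2 h and 12.6% at 24 h in that direction. The change was -0.35 ± 0.08 at 4 h (adjusted p 0.00605), -0.68 ± 0.08 at 10 h (adjusted p 1.19e-06) and -0.85 ± 0.08 at 24 h (adjusted p 2.84e-08), a fold of 0.554. Srxn1 has 3 further probe sets. Those with means of 7.60 and 6.28 log2 stood at -0.75 and -0.66 at 24 h, and the dimmest, at 4.38 log2, at 0.02. The call at 4 h, but not those at 10 h and 24 h, was lost with another choice of probe set (adjusted p 0.293 for the probe set of largest variance) and without 4 h replicate 3.

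Txnrd1, the cytosolic thioredoxin reductase, was also lower from 4 h on. Its arrays read 9.58, 9.73 and 9.59 log2 at 10 h and 9.79, 9.73 and 9.67 at 24 h, against 10.18, 10.22 and 10.09 at baseline, with no overlap at either time. The change was -0.36 ± 0.05 at 4 h (adjusted p 1.98e-05), -0.53 ± 0.05 at 10 h (adjusted p 3.34e-08) and -0.43 ± 0.05 at 24 h (adjusted p 9.57e-07, a fold of 0.741). All 3 calls held under each of the 29 alternatives run.

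Prdx1, a peroxiredoxin that Srxn1 can repair, fell less. It was at 12.87, 12.93 and 12.85 log2 at 24 h, against 13.08, 13.16 and 13.08 at baseline, all lower than the lowest baseline array. The change was -0.18 ± 0.04 at 10 h (adjusted p 0.00133) and -0.23 ± 0.04 at 24 h (adjusted p 0.000105), and a second probe set stood at -0.19 at 24 h, where its own adjusted p was 0.0611. Txn1, thioredoxin, at -0.10 ± 0.04 (adjusted p 0.0695), and Prdx2, at -0.10 ± 0.04 (adjusted p 0.14), missed the threshold at 24 h, although neither overlapped its baseline arrays. Txn1 passed at 24 h with the replicate number as a block in the fit.

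Of the enzymes that supply NADPH, the reducing power of both systems, 2 of 4 measured members fell and 0 rose at 10 h and at 24 h, where 6.16% and 5.34% of all genes fell. Me1, cytosolic malic enzyme, was at 6.66, 6.56 and 6.98 log2 at 24 h, against 7.47, 7.34 and 7.34 at baseline. Its arrays did not overlap the baseline arrays at 10 h or 24 h, while those at 1, 2 and 4 h did. The change was -0.41 ± 0.12 at 10 h (adjusted p 0.0176) and -0.65 ± 0.12 at 24 h (adjusted p 0.000306, a fold of 0.638), and the second probe set read -0.36 and -0.62. The 10 h call was lost with that probe set and without baseline replicate 1 or 10 h replicate 2; the 24 h call held under all 29 alternatives.

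Pgd, 6-phosphogluconate dehydrogenase of the pentose phosphate pathway, fell by a small amount. It was at 11.81, 11.85 and 11.86 log2 at 24 h, against 11.94, 11.99 and 12.01 at baseline, a change of -0.14 ± 0.04 (adjusted p 0.00931), after -0.12 ± 0.04 at 10 h (adjusted p 0.024). The 10 h call was lost in 6 of 29 alternatives, among them leaving out baseline replicate 2 or 3 or 10 h replicate 2 or 3. Its other 2 probe sets were lower as well, at -0.15 and -0.24 at 24 h. The 24 h call was lost without an intensity trend and without 24 h replicate 1. Tkt and Taldo1, transketolase and transaldolase of the same pathway, were not called at any time, with changes at 24 h of -0.06 ± 0.05 (adjusted p 0.534) and 0.04 ± 0.05 (adjusted p 0.691). The probe sets that stood for Pgd and Tkt carry the suffix that Affymetrix uses where some probes can match other transcripts.

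**Figure D3:**
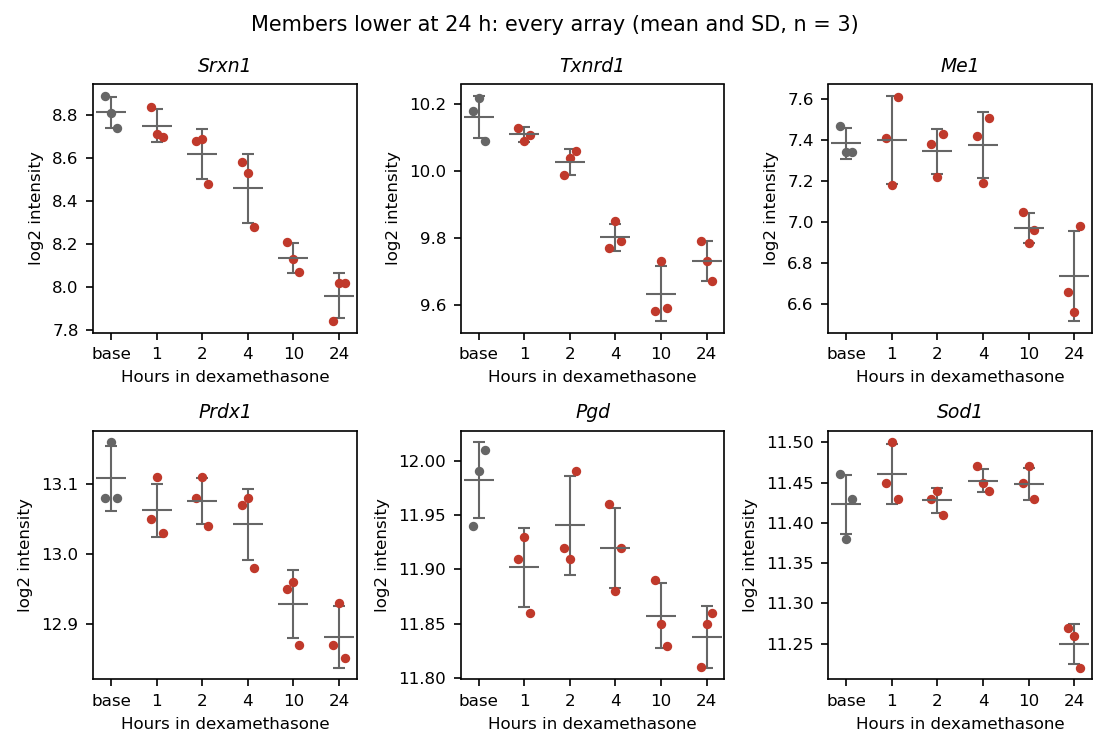
log2 intensity of 6 members lower at 24 h on every array (points; grey for baseline, red for dexamethasone), with the mean and SD of 3 arrays as lines; the x axis gives hours in dexamethasone and each y axis has its own range. Srxn1 and Txnrd1 are lower by 4 h, Me1, Prdx1 and Pgd by 10 h, and Sod1 at 24 h; the 10 h calls of Me1, Prdx1 and Pgd were lost in 3, 1 and 6 of 29 alternatives.

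Glutathione is made by glutamate-cysteine ligase, of which Gclc is the catalytic and Gclm the modifier subunit, and by Gss, from cystine that Slc7a11 brings in, and Gsr recycles it. Gsr, glutathione reductase, rose. It was at 8.83, 8.83 and 8.68 log2 at 24 h, against 8.52, 8.44 and 8.42 at baseline, with no overlap at 10 h or 24 h. The change was 0.28 ± 0.06 at 10 h (adjusted p 0.0039) and 0.32 ± 0.06 at 24 h (adjusted p 0.001, a fold of 1.25), and the second probe set read 0.16 and 0.18. With each array centred on its median the changes were 0.16 and 0.20 and neither passed (adjusted p 0.136 and 0.0628).

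Gclm fell at 24 h only among the 5 comparisons. It was at 10.70, 10.68 and 10.55 log2, against 10.76, 10.91 and 10.81 at baseline, a change of -0.19 ± 0.05 (adjusted p 0.0251), and the groups did not overlap. The call was lost without an intensity trend, without baseline replicate 2 and without 24 h replicate 3. Gclc stood at -0.09 ± 0.06 (adjusted p 0.39) and Gss at 0.07 ± 0.12 (adjusted p 0.765) at 24 h, and neither was called at another time. Slc7a11 was at or near background, above it on 5 of 18 arrays, so its change of -0.12 ± 0.13 (adjusted p 0.61) says little of its level.

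The enzymes that remove superoxide and hydrogen peroxide moved in both directions. Sod2, the mitochondrial superoxide dismutase, rose late. It was at 10.93, 11.03 and 10.99 log2 at 24 h, against 10.77, 10.72 and 10.73 at baseline, a change of 0.24 ± 0.06 (adjusted p 0.00415). Up to 10 h its changes lay between -0.08 and 0.03 and none was called. Its other bright probe sets read 0.18 and 0.17 at 24 h, and the call was lost with the mean of all its probe sets, with the probe set of largest variance, which was near background, and with each array centred on its median (0.12 log2).

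Sod1, the cytosolic copper-zinc enzyme, fell over the same interval. It was at 11.27, 11.26 and 11.22 log2 at 24 h, against 11.46, 11.38 and 11.43 at baseline, a change of -0.17 ± 0.04 (adjusted p 0.00136). Its spread over arrays was small, with an SD of 0.0246 at 24 h and 0.037 at baseline (n = 3 each). A second probe set, at 4.27 log2, read -0.27 at 24 h, and the call was lost where it stood for the gene or was averaged in.

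Cat, catalase, fell at 10 h only among the 5 times. It was at 10.66, 10.98 and 10.94 log2 at 10 h, against 11.01, 11.02 and 11.22 at baseline, a change of -0.23 ± 0.07 (adjusted p 0.0247). Replicate 1 lay lowest at 10 h, and without it the change was -0.13 and the call was lost, as it was without baseline replicate 3 and where only these groups were fitted. At 24 h Cat stood at -0.14 ± 0.07 (adjusted p 0.21). Gpx1, a glutathione peroxidase, passed at 10 h and 24 h with 0.10 ± 0.03 at each (adjusted p 0.0373 and 0.0412). Centring each array on its median turned it to -0.02 at both times (adjusted p 0.864 and 0.823). That centring shifts all genes alike and put the median change of all genes at -0.11 log2 at both times. The turn therefore does not show whether the scaling made the rise, which was not tested. Centring on the median gene difference or leaving out single arrays also ended the call. Gpx4, which reduces lipid peroxides in membranes, had changes between -0.03 and 0.01 at all 5 times, and none was called.

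The last group conjugates or detoxifies reactive compounds. Mgst1, a microsomal glutathione transferase, rose. It was at 11.42, 11.41 and 11.45 log2 at 24 h, against 11.05, 11.18 and 11.12 at baseline, with no overlap. The change was 0.16 ± 0.05 at 10 h (adjusted p 0.0169) and 0.31 ± 0.05 at 24 h (adjusted p 2.42e-05, a fold of 1.24). The 10 h call was lost in 6 of 29 alternatives, among them centring each array on its median (0.04 log2, adjusted p 0.647) and leaving out baseline replicate 1 or 10 h replicate 2. Its other probe set was at background on all arrays, and averaging it in gave 0.15 at 24 h (adjusted p 0.206). Mgst1 at 24 h was the rise that passed with each array centred on its median, at 0.19 log2.

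Ephx1, microsomal epoxide hydrolase, moved both ways. It was at 7.90, 7.94 and 8.02 log2 at 10 h and at 7.21, 7.14 and 7.44 at 24 h, against 7.59, 7.72 and 7.64 at baseline. All 10 h arrays lay above the baseline arrays and all 24 h arrays below them. The change was 0.30 ± 0.08 at 10 h (adjusted p 0.0155) and -0.39 ± 0.08 at 24 h (adjusted p 0.0023). The 24 h call held under all 29 alternatives, while the 10 h call was lost with each array centred on its median (0.19 log2, adjusted p 0.176), without baseline replicate 1 and without 10 h replicate 3. Ephx1 had a single probe set.

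Gstm1, a cytosolic glutathione transferase, read 9.82, 9.93 and 9.56 log2 at 24 h, against 10.09, 10.17 and 9.89 at baseline. The groups overlapped, and the change of -0.28 ± 0.09 passed narrowly (adjusted p 0.0489) and was lost in 16 of 29 alternatives. Its other 3 probe sets were lower too, between -0.13 and -0.35, and some of its probes can match related Gstm genes. Nqo1, a quinone reductase that is a standard Nrf2 target, was dim and did not pass. It read 5.07, 5.03 and 4.75 at 24 h, against 5.43, 5.41 and 5.29 at baseline, a change of -0.43 ± 0.16 (adjusted p 0.0786), though the groups did not overlap. With the replicate number as a block in the fit Nqo1 passed at 24 h. Gsto1 was at 0.12 ± 0.06 at 10 h (adjusted p 0.239) and -0.01 ± 0.06 at 24 h (adjusted p 0.952). A second probe set of similar brightness (10.28 beside 10.32 log2) read 0.15 at 10 h and 0.13 at 24 h.

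**Figure D4:**
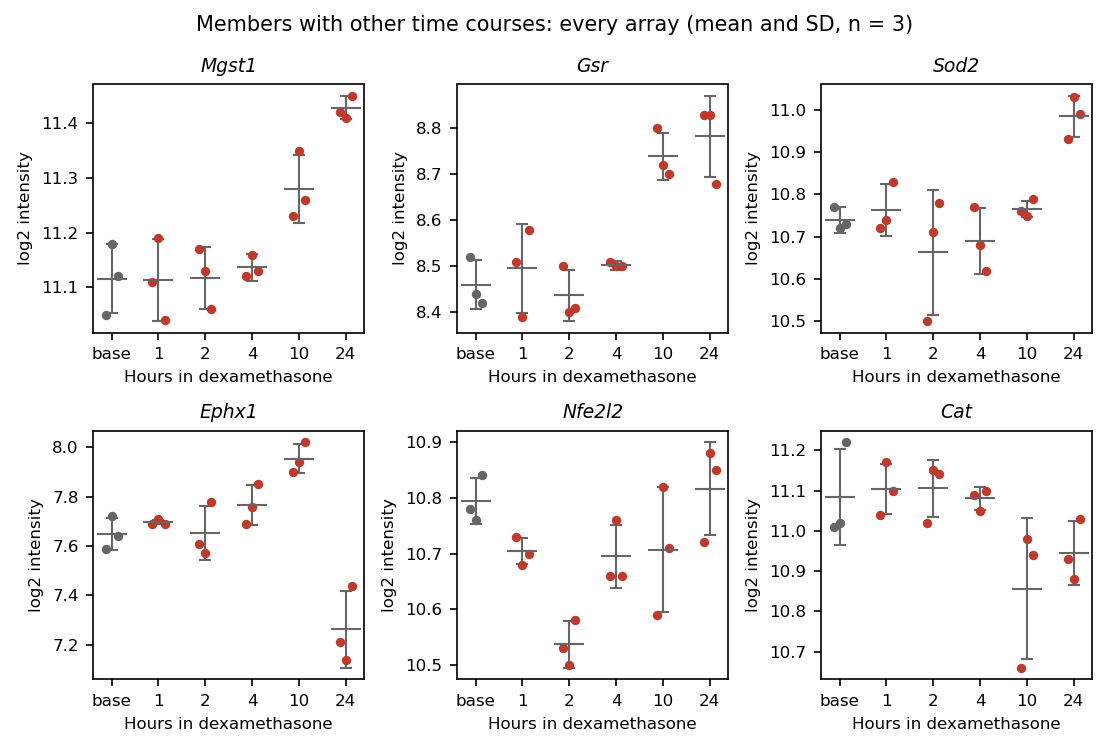
log2 intensity of 6 members with other time courses on every array (points; grey for baseline, red for dexamethasone), with the mean and SD of 3 arrays as lines and a y axis of its own for each. Mgst1 and Gsr are higher from 10 h (calls lost there in 6 and 1 of 29 alternatives), Sod2 at 24 h, Ephx1 is higher at 10 h and lower at 24 h, Nfe2l2 is lowest at 2 h and Cat at 10 h.

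**Figure D5:**
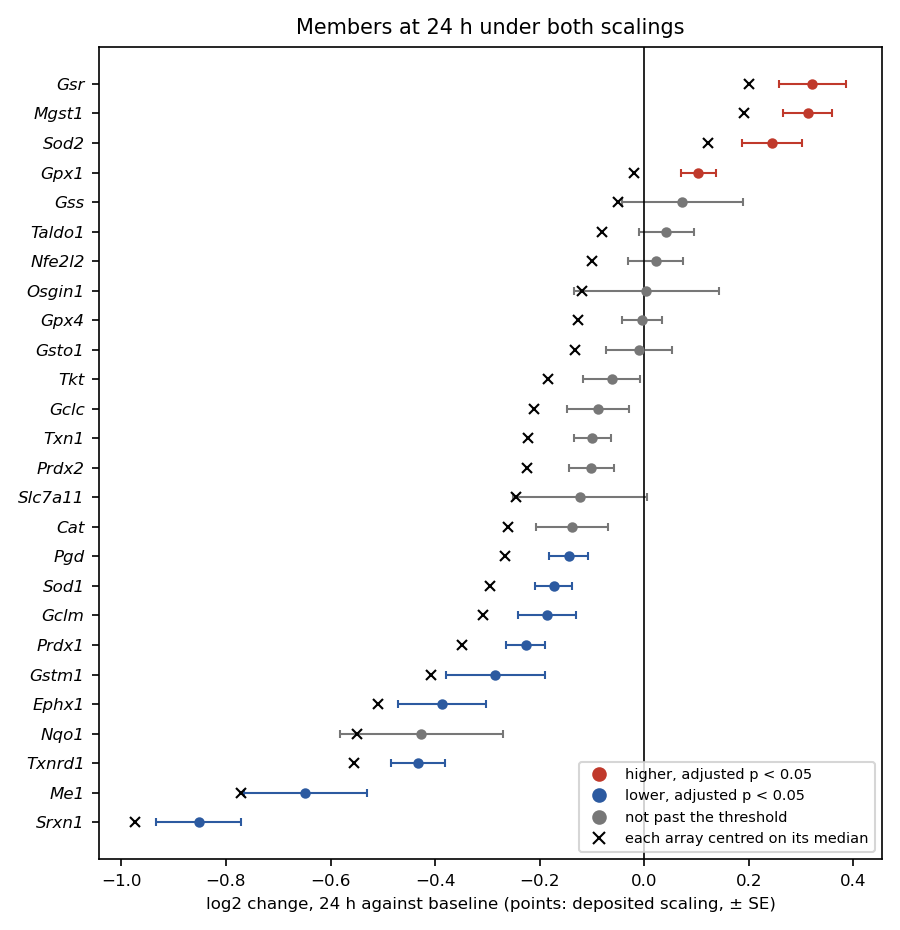
log2 change at 24 h against baseline of the 26 members (points with SE, coloured by call) and the same change with each array centred on its median over the tested genes (crosses). The crosses lie left of the points, the change of Gpx1 turns below 0, and those of Srxn1, Me1, Txnrd1 and Ephx1 stay lowest among called members.

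Successive times were compared to place the moves. From 1 h to 2 h 0 members were called, where 1.12% of genes were, and 1 had an unadjusted p under 0.05. From 2 h to 4 h Txnrd1 fell by 0.23 ± 0.05 (adjusted p 0.0192; 1.9% of genes were called), with 0.743% lower, a call lost when 2 h replicate 2 or 3 or 4 h replicate 1 or 3 was left out. From 4 h to 10 h Srxn1 fell by 0.32 ± 0.08 (adjusted p 0.0217) and Gsr rose by 0.24 ± 0.06 (adjusted p 0.0371), beside 4.18% of genes, with 2.35% higher and 1.83% lower. The count of 2 was 0 when 4 h replicate 1 or 10 h replicate 3 was left out, and 1 when 10 h replicate 1 or 4 h replicate 2 or 3 was. From 10 h to 24 h 4 members moved, beside 2.16% of genes, with 0.993% higher and 1.17% lower. Ephx1 fell by 0.69 ± 0.08 (adjusted p 1.77e-05), Gclm fell by 0.23 ± 0.05 (adjusted p 0.0261) and Sod1 fell by 0.20 ± 0.04 (adjusted p 0.00234), while Sod2 rose by 0.22 ± 0.06 (adjusted p 0.0414). The count of 4 in this last step was 2 when 10 h replicate 1 or 24 h replicate 3 was left out.

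Other genes of the pathway were taken from lists chosen for this work by what the genes do, with earlier results of these data known. Their counts beside the shares of all genes are therefore a description and not a test of the lists. Of 13 tested regulators around Nrf2 1 was called at 4 h, 1 at 10 h and 1 at 24 h, 7.69% each time. Among all genes 7.52%, 14.4% and 12.7% were called at those times, so the counts are near or below that share. Cul3, the ligase scaffold, rose by 0.30 ± 0.05 at 10 h (adjusted p 0.000266) and 0.29 ± 0.05 at 24 h (adjusted p 0.000385). Both calls were lost with each array centred on its median, and the 10 h call also with the probe set of largest variance. Bach2, of the repressor family that competes for the same sites, passed the test as higher at 4 h (adjusted p 0.0144), with a mean of 4.41 log2 at 4 h and 3.81 at baseline. The baseline mean is below the average background level, so no size is given for the change, and the call was lost without baseline replicate 2 and without 4 h replicate 2. The small Maf genes Maff, Mafg and Mafk and the repressor gene Bach1 were not called at 24 h, with changes of 0.45 ± 0.25, 0.15 ± 0.08, 0.04 ± 0.11 and 0.10 ± 0.06.

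Of 16 tested further targets of Nrf2, 2 rose and 6 fell at 24 h, where 7.38% of all genes rose and 5.34% fell. Hmox1, heme oxygenase 1, rose by 0.71 ± 0.10 at 10 h (adjusted p 1.93e-05) and by 0.37 ± 0.10 at 24 h (adjusted p 0.0173). The 24 h call of Hmox1 was lost with each array centred on its median (adjusted p 0.121), without an intensity trend and without 24 h replicate 1 or 2 or baseline replicate 3. Abcc1, an exporter of glutathione conjugates, fell by 0.34 ± 0.07 at 24 h (adjusted p 0.000765), and Cbr3, a carbonyl reductase, fell by 0.31 ± 0.07 (adjusted p 0.00484). The other genes that fell were Blvrb, Abcc4, Slc48a1 and Ftl1, by 0.14 to 0.30 log2, and Blvra, biliverdin reductase A, rose by 0.17 ± 0.05 (adjusted p 0.0124). At 10 h 2 rose (Hmox1 and Esd) and 3 fell (Abcc1, Slc48a1 and Ftl1), where 8.29% of all genes rose and 6.16% fell. At 4 h Hmox1 was already called higher (0.44 log2) and Slc48a1 lower (-0.20), where 4.5% of all genes rose and 3.03% fell. Those 4 h calls were lost in 3 and 18 of 29 alternatives. Of the 24 h calls, that of Abcc1 was lost with the probe set of largest variance (adjusted p 0.0778) and that of Cbr3 without 24 h replicate 3 (adjusted p 0.0585). Those of Blvra, Slc48a1 and Ftl1 were lost in 5, 4 and 3 of 29 alternatives, and those of Blvrb and Abcc4 in 0.

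Among the members and these lists, the largest rises at 24 h stood among other redox enzymes. Of 16 tested redoxins and peroxidases 3 rose and 1 fell at 24 h, where 7.38% of all genes rose and 5.34% fell, so the 1 that fell is near the share of all genes. Gpx3, the secreted glutathione peroxidase, rose by 1.05 ± 0.15 at 10 h (adjusted p 8.64e-06) and by 1.60 ± 0.15 at 24 h (adjusted p 1.2e-08). Msrb1, a methionine sulfoxide reductase, rose by 0.60 ± 0.06 at 24 h (adjusted p 1.91e-07), and Msra, which acts on the other form of methionine sulfoxide, fell by 0.38 ± 0.08 (adjusted p 0.00109). Glrx, glutaredoxin, rose by 0.86 ± 0.06 at 10 h (adjusted p 2.48e-11) and by 0.38 ± 0.06 at 24 h (adjusted p 2.92e-05). Of 16 tested glutathione enzymes 3 rose and 1 fell at 24 h, beside the same shares of all genes, with Mgst2, a membrane relative of Mgst1, at 1.37 ± 0.13 (adjusted p 2.18e-08), Hagh at 0.37 ± 0.07 (adjusted p 0.00116), Gstk1 at 0.40 ± 0.13 (adjusted p 0.0401, lost in 9 of 29 alternatives) and Chac1, which degrades glutathione, at -0.94 ± 0.24 (adjusted p 0.0084). At 10 h 3 of the redoxins and peroxidases rose (Glrx, Gpx3 and Msrb1) and 1 fell (Txnrd3), and 3 of the glutathione enzymes rose (Mgst2, Mgst3 and Hagh) and 0 fell, where 8.29% of all genes rose and 6.16% fell. The call of Txnrd3 was lost without baseline replicate 1. At 4 h Glrx and Msrb1 were already higher, by 0.38 and 0.27 log2, and Msrb2 was lower (-0.39). Mgst2, Mgst3 and Hagh were higher at 4 h, by 0.53, 0.19 and 0.26 log2, and 0 glutathione enzymes fell. At that time 4.5% of all genes rose and 3.03% fell. The 4 h calls of Glrx, Msrb1, Msrb2, Mgst2, Mgst3 and Hagh were lost in 0, 2, 4, 2, 3 and 8 of 29 alternatives.

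Of 8 tested genes on a further list, drawn up for NADPH supply, 2 rose at 24 h, where 7.38% of all genes rose. They were H6pd, by 0.37 ± 0.09 (adjusted p 0.00486), and Me2, by 0.73 ± 0.19 (adjusted p 0.0119). Whether Me2 makes NADPH here was not measured, so its rise is not read as a rise of NADPH supply. H6pd, which makes NADPH inside the endoplasmic reticulum, had risen by 0.51 ± 0.09 at 2 h (adjusted p 0.000584) and by 0.74 ± 0.09 at 4 h (adjusted p 1.39e-06). The 24 h call of H6pd was lost with each array centred on its median, and that of Me2 when 24 h replicate 1 or 2 or baseline replicate 2 or 3 was left out. Of 6 tested NADPH oxidase and metallothionein genes 1 was called at 24 h, 16.7% of them beside 12.7% of all genes. It was Rac2, which fell by 0.23 ± 0.06 (adjusted p 0.012), a direction that reversed with the probe set of largest variance (0.34 log2, adjusted p 0.191) and with the mean of all probe sets (0.06 log2). Mt1, a metallothionein, rose by 0.30 ± 0.05 at 10 h (adjusted p 0.000267), a call lost with the probe set of largest variance and with the mean of all probe sets, and was at -0.01 ± 0.05 at 24 h (adjusted p 0.941).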

How the data were processed

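RNA of 18 samples was hybridised to Affymetrix mouse arrays. The authors deposited 1 linear intensity per probe set and array, made with RMA in affy per the submitters' processing notes, which name no versions; array scan dates were not used here. Here log2 of the intensity was taken. Of 45141 probe sets, 28898 had a single gene symbol in the platform annotation, 551 had several, and 104 were controls; 28689 were found in RefSeq by gene ID and 0 symbols changed. A run of 211 probe sets with evenly stepped values on baseline replicate 1 was left out, and it held no member. The brightest probe set stood for each of 17020 genes, and 13190 genes at or above the 40th percentile of the array on at least 3 arrays were tested. All 6 groups were fitted together with limma 3.58.1 in R 4.3.3 (moderated test with an intensity trend, no block), and p-values were adjusted by Benjamini-Hochberg within each comparison. Background was the 95th percentile of 23 nonspecific control probe sets on each array.

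In simulated data for 24 h against baseline over 13190 genes, the fit recovered 14% of 50 genes changed by 0.25 log2, 66% at 0.5, 98% at 1 and 100% at 2. It made 10 false calls. The median standard error at 24 h was 0.06 for the members and 0.12 for all tested genes, so these shares need not hold for the members. The number of arrays limits the precision. The members and lists were chosen with earlier results of these data known. All tested members are described; of the other lists, up to 3 genes with the largest change past the threshold at 24 h are named, with any gene in a count of 5 or fewer. Others that are named, such as the Maf genes, were chosen after their values were seen. Alternatives were a replicate block, other rules for the probe set, the filter, the variance trend, centring, the stepped values, the groups fitted, the adjustment and leaving out each array. Promoter windows are from RefSeq, GRCm38.p6.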

Additional observations from a re-analysis of the deposited data

Results flagged for a closer look

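For 7 members the change against baseline differed between successive times, by the limma contrast of one time with the time before it. From 2 h to 4 h the difference was -0.23 log2 for Txnrd1. From 4 h to 10 h it was -0.32 log2 for Srxn1 and 0.24 log2 for Gsr. From 10 h to 24 h it was -0.69 log2 for Ephx1, -0.23 log2 for Gclm, -0.20 log2 for Sod1 and 0.22 log2 for Sod2. Groups of 3 arrays are too small for the test of single outlying arrays, which was not run.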

How the results depend on the processing

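Of 26 member calls against baseline, 7 held in all 29 alternatives (Txnrd1 at 4, 10 and 24 h, Srxn1 at 10 and 24 h, Me1 and Ephx1 at 24 h), and 15 held with each of the 18 arrays left out. At 2 h the count of 1 became 0 with the probe set of largest variance, 0 with the mean of all probe sets, 0 without an intensity trend and 3 with median centring. At 10 h the count of 10 became 6 without an intensity trend and 6 with only the groups compared. From 2 h to 4 h the count of 1 became 0 without an intensity trend and 0 with median centring. From 4 h to 10 h the count of 2 became 7 with the replicate block, 1 with the probe set of largest variance, 1 with the mean of probe sets, 1 without a filter, 4 with a stricter filter, 0 without a trend and 0 with only the groups compared. From 10 h to 24 h the count of 4 became 7 with the replicate block, 2 with the probe set of largest variance, 1 without a trend and 2 with median centring. With 1 array left out the counts were 0 at 1 h, 1 at 2 h, 1 to 2 at 4 h, 6 to 10 at 10 h, 10 to 13 at 24 h, 0 from 1 h to 2 h, 0 to 1 from 2 h to 4 h, 0 to 3 from 4 h to 10 h, 2 to 4 from 10 h to 24 h and 11 to 14 in the F test. Median centring reversed Gpx1 to -0.02 log2 at 10 h (-0.0154) and at 24 h (-0.019). Rac2 reversed with the probe set of largest variance, to 0.0655 at 10 h and 0.34 at 24 h, and with the mean of probe sets, to 0.056 at 24 h. The cause was not tested in any of these.

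The labels do not say that a replicate number marks a shared mouse or day. Deviations from the group means correlated at 0.02 to 0.29 between same-numbered arrays (median 0.15, over 0.1 in 35 of 45 pairs) and at -0.23 to 0.08 between others (median -0.08, over 0.1 in 0 of 90). On average 18 of 18 arrays correlated best with their own number in the other groups. This is a hint from the data of a shared replicate effect. The fit without a block was kept because no label states the pairing and not every pair passed 0.1. Its p-values therefore make no allowance for such an effect. Over all genes the block called 2250 at 24 h, in place of 1678. The replicate block gave 0, 1, 2, 10 and 15 members at 1, 2, 4, 10 and 24 h, and added Txn1 (adjusted p 0.0382) and Nqo1 (adjusted p 0.0347) at 24 h. Signal near background limits Slc7a11, above it on 5 of 18 arrays.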
